A study of Arabidopsis thaliana with 4 samples.

Results

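The 60 genes described here are the bright nuclear genes that stood highest in arrays labelled 35S:OsGSTU4 relative to arrays labelled WT. They were chosen by measured values, so the choice itself fixed the direction and the size of every difference given below. A gene qualified when its brightest probe set was named for it alone, when it lay on chromosomes 1 to 5, and when its log2 signal averaged 8 or more over 4 arrays. Both 35S:OsGSTU4 arrays also had to lie above both WT arrays. Symbols beginning with UGT, GST, CYP, WRKY, MYB, HSP or GH3 were left out. Of 13350 genes with a probe set of their own, 4741 were bright nuclear genes of this kind. Among these, 1064 had arrays that did not overlap in this direction, and the 60 with the largest difference of means were kept. Non-overlap alone was common, at 22.4% of bright nuclear genes in this direction and 17.3% in the other.

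RNA came from whole seedlings of ecotype Columbia, grown for 14 days on MS medium under control conditions. The labels give 16 h of light and 8 h of darkness, while the paper's methods state a shorter day. The 35S:OsGSTU4 group had 2 arrays, whose labels read GST overexpression without naming the gene. The paper describes several transgenic lines and a single one for its microarrays, that with the lowest transgene expression of those it measured. These lines carry OsGSTU4, a rice gene for a glutathione S-transferase, behind the CaMV 35S promoter, which is active in most tissues. The WT group had 2 arrays of plants without the transgene. One sentence of the series' design text names a GRX line instead. The array carries Arabidopsis sequences, and the transgene's level could not serve to check the label. Values are deposited log2 signals of Affymetrix probe sets, in which 1 unit is a doubling. Differences are 35S:OsGSTU4 minus WT, and they run opposite to the direction the study prints. The sign was reversed at 63 of 63 probe sets that could be compared. Groups are therefore called by their labels. In RNA from whole seedlings, fewer cells of a type and less RNA per cell cannot be told apart.

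As background, most genes of photosynthesis in the nucleus encode proteins that are made in the cytosol and imported into the plastid, where they join subunits encoded in the plastid genome. Light-dependent reduction of protochlorophyllide is the step at which angiosperms make chlorophyll only in the light. Dividing cells of the young shoot and root carry another set of transcripts, for kinases and chromatin proteins of mitosis. Members of both kinds were among the 60 genes, beside genes of starch, nuclear transport and auxin response. The gene table gave 12 of them a symbol, and 48 only a locus tag.

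Differences among the 60 genes ran from 0.69 to 1.48 with a median of 0.78, a fold of 1.72. The median over all 4741 bright nuclear genes was 0.02, and 54.0% of them had a higher mean in the 35S:OsGSTU4 arrays. Limma, fitted to all 22746 probe sets, put 3 of the 60 past a fold of 2 with an unadjusted P of at most 0.05, the thresholds of the paper. Such calls were made at 2.38% of all probe sets in this direction, at 2.34% in the other, and at 0.0633% of bright nuclear genes in this direction. Those 3 genes are the only bright nuclear genes so called, and since the rule ranked on the same difference nothing is read from that count. Another 2 members had a fold of 2 without the P. An unadjusted P of at most 0.05 was reached by 21 of the 60, against 2.99% of all probe sets and 0.485% of bright nuclear genes that were higher with such a P. With a variance that follows the signal in limma it was reached by 58. It was reached by 15 with the methods' t-test, which the paper names under its statistics but not for its microarrays. By that t-test 1381 of all probe sets had an unadjusted P under 0.05 in either direction. No such share was taken with the variance following the signal. As the rule ranked on this difference, nothing is read from either count. After adjustment 0% of all probe sets and 0 of the 60 passed, and the smallest adjusted p of a member was 0.723 in limma. In all probe sets 1317 had an unadjusted P under 0.05, and 2 passed an adjusted p of 0.05 with the variance following the signal, neither of them a member. The count of 3 was 1 without 35S:OsGSTU4 replicate 1, 0 without its replicate 2, 3 without WT replicate 1 and 7 without WT replicate 2. It was 1 under each of 3 other scalings, AT5G62280 with arrays centred on their medians or on nuclear genes and AT1G19450 after quantile normalization. With 2 arrays against 2, an exact permutation test cannot give a p below 0.333, so none was run. The submitters call the replicates biological, and how their cultures were separated is not given in the sources used here.

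**Figure D1:**
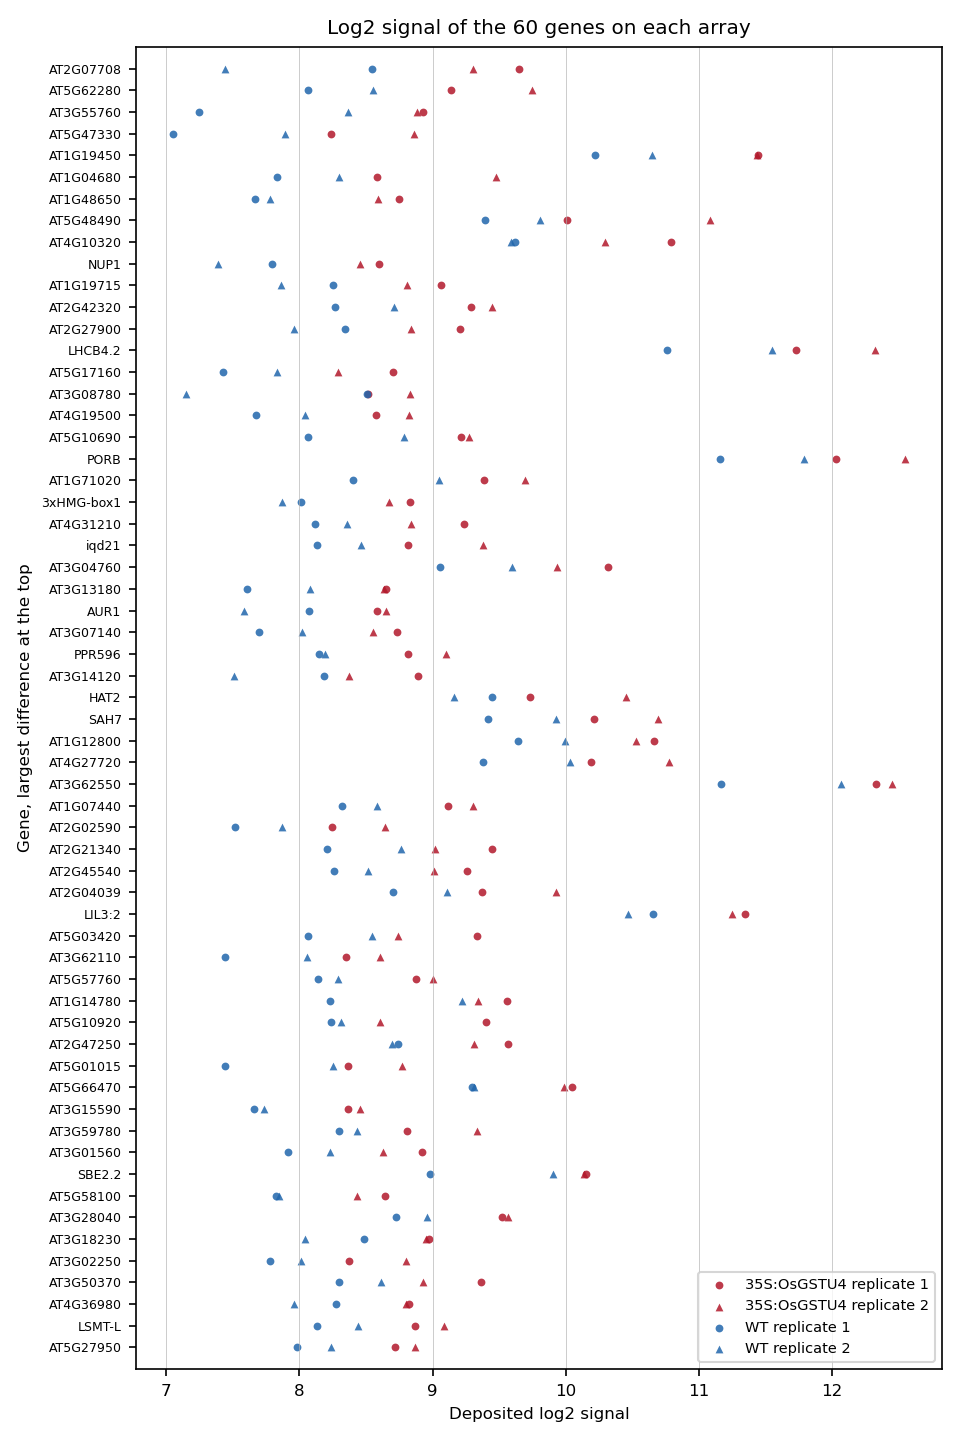
Deposited log2 signal (horizontal axis) of each of the 60 genes (rows, largest difference at the top) on 2 arrays labelled 35S:OsGSTU4 (red) and 2 labelled WT (blue), with circles for replicate 1 and triangles for replicate 2. Red points lie right of blue points in every row by the rule, and at AT3G08780 the nearest pair is 0.004 apart.

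Among the 60 were 3 annotated genes of chlorophyll synthesis and of the light-harvesting antenna. PORB (AT4G27440), a protochlorophyllide oxidoreductase that makes chlorophyllide in the light, stood at 12.03 and 12.55 in the 35S:OsGSTU4 arrays, against 11.16 and 11.79 in the WT arrays. LHCB4.2 (AT3G08940), which encodes a form of the minor antenna protein CP29 of photosystem II, had 11.73 and 12.33 in 35S:OsGSTU4 against 10.76 and 11.55 in WT. LIL3:2 (AT5G47110) had 11.35 and 11.25 in the 35S:OsGSTU4 arrays, against 10.65 and 10.47 in the WT arrays. It encodes a light-harvesting-like protein of the thylakoid that acts in chlorophyll synthesis. In PORB and LHCB4.2 the lower 35S:OsGSTU4 array was only 0.24 and 0.18 above the higher WT array, and WT replicate 1 was the lowest array for both. Their differences of means were 0.82 (standard error 0.38, from limma as for all such errors here) and 0.87 (0.44). LIL3:2 had a smaller difference, 0.74 (0.23), with replicates closer together and a gap of 0.60 between the groups.

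LIL3:1, the paralog of LIL3:2, which is in none of the lists and is named after its value was seen, had a difference of 0.64 (0.23), close to that of LIL3:2. Of 54 listed nuclear genes of light harvesting and the photosystems, 8 had a probe set of their own, 7 with a higher and 1 with a lower mean. Their median difference was 0.14, and the counts were the same after centring or quantile normalization of the arrays. None passed the thresholds in either direction. LHCB4.1, the closest relative of LHCB4.2, had 14.14 and 14.56 in the 35S:OsGSTU4 arrays against 13.99 and 14.51 in the WT arrays. Its difference was 0.10 (standard error 0.33), with arrays that overlap. LHCB4.3 had 8.58 and 8.66 in 35S:OsGSTU4 against 9.13 and 8.74 in WT, a difference of -0.32 (0.26). The estimates for the 3 genes of CP29 thus varied, with errors too large to set their signs apart. Only LHCB4.2, chosen by the rule, is among the 60. Of 37 listed genes of chlorophyll and carotenoid synthesis 9 were measured, 8 with a higher mean, or 7 once the arrays were centred. At 4 of the 9 the arrays did not overlap in this direction, against 20.7% of all genes and 22.4% of bright nuclear genes. PORB is 1 of these 4 by the rule. In LYC the lower 35S:OsGSTU4 array, at 9.68, barely exceeded the higher WT array, at 9.66. The median of the 9 was 0.24, against 0.04 over all 13350 genes, of which 53.6% had a higher mean. None passed the thresholds. Next to PORB came LYC, the lycopene cyclase gene, at 0.45 (standard error 0.32), and HEME2, a uroporphyrinogen decarboxylase gene, at 0.39 (0.23). HEMA2, for a glutamyl-tRNA reductase, was the 1 with a lower mean, at -0.28 (0.28). Tissue markers are set beside these values. The 2 of 14 root markers with a probe set, PYK10 and EXPA7, summed to 9444 to 10195 in linear signal in the 35S:OsGSTU4 arrays and to 11497 to 11691 in the WT arrays, with neither at 0. The root sum rests mainly on PYK10, whose mean log2 signal was 13.37. Of 8 epidermal markers 2 were matched to a probe set, FDH and FMA. FDH was matched by symbol alone, and its probe set may belong to another gene of that symbol. No epidermal sum is therefore given. EXPA7 had 6.39 and FMA 7.35. RCA, the 1 of 9 mesophyll markers measured, had 24707 to 29917 in the 35S:OsGSTU4 arrays and 21682 to 27371 in the WT arrays. By gene, log2 differences were -0.23 (standard error 0.22) for PYK10, -1.50 (0.90) for EXPA7 and -0.52 (0.39) for FMA. RCA was at 0.16 (0.27), and no measured marker passed the thresholds. No listed marker of pollen, seed, xylem or phloem could be measured by a probe set of its own. The part of tissue proportions in the differences was not tested.

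Another 3 members act on chromosomes of dividing cells or at the nuclear pore, and in these WT replicate 2 was the lowest array. AUR1 (AT4G32830), an Aurora kinase of the mitotic spindle, stood at 8.58 and 8.65 in the 35S:OsGSTU4 arrays, against 8.07 and 7.58 in the WT arrays. 3xHMG-box1 (AT4G11080), which encodes a protein that binds mitotic chromosomes, had 8.83 and 8.68 in 35S:OsGSTU4 against 8.01 and 7.87 in WT. NUP1 (AT3G10650), a protein of the nuclear pore basket, had 8.60 and 8.46 in 35S:OsGSTU4 against 7.79 and 7.39 in WT. The nearest arrays of the groups were 0.51, 0.66 and 0.66 apart. Their differences of means were 0.79 (standard error 0.29), 0.81 (0.23) and 0.93 (0.27). The WT means of AUR1, 3xHMG-box1 and NUP1 were 7.83, 7.94 and 7.59, under the brightness minimum of 8. These genes thus qualified only through their 35S:OsGSTU4 arrays. No list of cell cycle genes was fixed for comparison. Of 30 genes in a list of histones 7 were measured, with a median of -0.04, 3 with a higher and 4 with a lower mean, or 2 and 5 once the arrays were centred. None passed the thresholds.

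Genes of starch, auxin response and calcium signalling each gave 1 annotated member. SBE2.2 (AT5G03650), a starch-branching enzyme, had 10.16 and 10.14 in the 35S:OsGSTU4 arrays against 8.98 and 9.91 in the WT arrays. Its WT arrays were further apart than the group means, which differed by 0.70 (standard error 0.41). HAT2 (AT5G47370), an auxin-inducible homeodomain-leucine zipper factor, had 9.73 and 10.45 in 35S:OsGSTU4 against 9.45 and 9.16 in WT. Its 35S:OsGSTU4 arrays were further apart than its WT arrays, though less far than its group means. Its difference was 0.79 (0.37). Of 67 listed auxin genes outside the GH3 family 5 were measured, and HAT2 was the 1 with a higher mean, at a list median of -0.11. SBE2.2 came from a list of 42 genes of sugar starvation and dark response, which is not a list of starch genes. Of these 8 were measured, 3 with a higher and 5 with a lower mean and a median of -0.05. The counts became 4 and 4 after quantile normalization and 2 and 6 with centred arrays. No gene of these lists passed the thresholds. The calmodulin-binding IQ-domain gene iqd21 (AT3G49260) had 8.82 and 9.38 in the 35S:OsGSTU4 arrays against 8.13 and 8.46 in the WT arrays.

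The other 3 annotated members act in different compartments. PPR596 (AT1G80270), a pentatricopeptide repeat protein of mitochondria, had 8.81 and 9.10 in the 35S:OsGSTU4 arrays against 8.15 and 8.19 in the WT arrays, which were 0.04 apart. Its difference was 0.79 (standard error 0.24). SAH7 (AT4G08685), of the Ole e 1-like family of secreted proteins, had 10.22 and 10.70 in 35S:OsGSTU4 against 9.42 and 9.93 in WT. LSMT-L (AT1G14030), a lysine methyltransferase of the plastid related to the one named for the large subunit of Rubisco, had 8.87 and 9.09 in 35S:OsGSTU4 against 8.13 and 8.44 in WT and lay near the edge of the rule at rank 59.

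The 5 members with a fold of 2 or more were all known by locus tag alone. AT2G07708 had the largest difference, 1.48 (standard error 0.49), with 9.65 and 9.30 in the 35S:OsGSTU4 arrays against 8.55 and 7.44 in the WT arrays. Its WT replicate 2 minus replicate 1 was -1.11, and its probe set is the 1 of the 60 whose suffix marks oligonucleotides shared by several transcripts. Of the 20 probe sets within 10 numbers of it in the array's numbering, 12 are tied to a plastid or mitochondrial record of the gene table, 1 to another gene of chromosome 2 and 7 to no single record. The 11 mitochondrial genes measured had a median difference of 0.56, with 6 of them higher in mean, and the 69 plastid genes had a median of 0.93. Whether this probe set read nuclear RNA, organelle RNA or both was not tested, so AT2G07708 is a bright nuclear gene by the annotation only. AT5G62280 followed at 1.13 (0.37), with 9.14 and 9.75 in 35S:OsGSTU4 against 8.06 and 8.55 in WT. AT1G19450, also past the thresholds, was at 1.01 (0.27), with 11.44 and 11.44 in the 35S:OsGSTU4 arrays against 10.22 and 10.65 in the WT arrays. It was well separated, with a gap of 0.79 between the nearest arrays, and its difference fell short of a fold of 2 at 0.92 with arrays centred on their medians and 0.93 when centred on nuclear genes. AT3G55760 had 8.93 and 8.88 in 35S:OsGSTU4 against 7.25 and 8.36 in WT, and AT5G47330, of the palmitoyl protein thioesterase family in the annotation of the paper, had 8.24 and 8.86 in 35S:OsGSTU4 against 7.05 and 7.89 in WT. In both, WT replicate 1 lay far below WT replicate 2, and neither passed the P threshold. AT5G62280 and AT5G47330 are also in the study's printed list, which gives them the opposite direction. The paper's methods state more replicates than the arrays used here, so whether that list rests on these arrays alone is not known.

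Ranks 6 to 20 held another 12 genes known by locus tag. The widest gap between groups among all 60 was that of AT1G48650, with 8.75 and 8.59 in the 35S:OsGSTU4 arrays against 7.67 and 7.77 in the WT arrays. AT4G10320 was also well separated, with 10.79 and 10.30 in 35S:OsGSTU4 against 9.62 and 9.59 in WT, a gap of 0.68. AT5G48490 had 10.01 and 11.08 in 35S:OsGSTU4 against 9.39 and 9.81 in WT, and AT1G04680 had 8.58 and 9.47 in 35S:OsGSTU4 against 7.83 and 8.30 in WT. In both of these 35S:OsGSTU4 replicate 2 was alone at the top, over 0.8 above its partner. In another 4 genes the groups were 0.50 to 0.58 apart. AT1G19715 had 9.06 and 8.81 in 35S:OsGSTU4 against 8.25 and 7.86 in WT, AT2G42320 had 9.29 and 9.44 in 35S:OsGSTU4 against 8.27 and 8.71 in WT, AT2G27900 had 9.21 and 8.84 in 35S:OsGSTU4 against 8.34 and 7.96 in WT, and AT4G19500 had 8.57 and 8.82 in 35S:OsGSTU4 against 7.67 and 8.05 in WT. Somewhat less was seen for AT5G17160, with 8.71 and 8.29 in 35S:OsGSTU4 against 7.43 and 7.83 in WT, and for AT5G10690, with 9.21 and 9.27 in 35S:OsGSTU4 against 8.07 and 8.78 in WT. AT1G71020 had 9.38 and 9.69 in 35S:OsGSTU4 against 8.40 and 9.05 in WT, where WT replicate 1 was again the lowest array. AT3G08780 was the least separated of the 60, with 8.51 and 8.83 in the 35S:OsGSTU4 arrays against 8.51 and 7.15 in the WT arrays. Its WT replicate 2 minus replicate 1 was -1.36, its gap was 0.004, and its standard error of 0.57 was the largest of the 60. It no longer met the rule once each array was centred on its median.

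The remaining 31 members known by locus tag ranked from 22 to 60, with differences of 0.69 to 0.80. Limma gave them standard errors of 0.22 to 0.44, and 9 of the 31 had an unadjusted P of at most 0.05. The highest mean signal of the 60 was here, at AT3G62550, with 12.33 and 12.45 in the 35S:OsGSTU4 arrays against 11.17 and 12.07 in the WT arrays, where WT replicate 1 lay well below WT replicate 2. AT4G27720 had a wider spread within each group, with 10.19 and 10.77 in 35S:OsGSTU4 against 9.38 and 10.04 in WT. AT5G66470 had the smallest standard error of the 60, with 10.05 and 9.99 in 35S:OsGSTU4 against 9.30 and 9.31 in WT. At the edge of the rule, ranks 56 to 60 had differences of 0.69 (AT3G02250, AT3G50370, AT4G36980, LSMT-L and AT5G27950). Ranks 61 to 65, which were left out, had 0.68 (AT1G76405, AT3G60320, AT1G69420, AT2G36720 and AT2G24060). The border therefore cuts through genes of nearly equal difference.

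**Figure D2:**
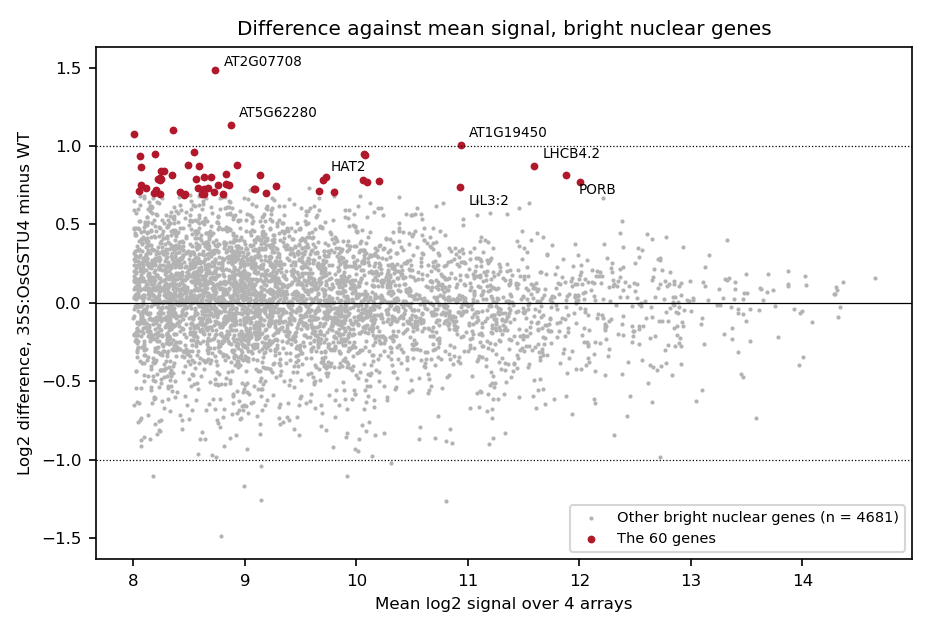
Log2 difference, 35S:OsGSTU4 minus WT (vertical axis), against the mean log2 signal over 4 arrays (horizontal axis) for the 60 genes (red) and the other 4681 bright nuclear genes (grey), with dotted lines at a fold of 2 either way. Most of the 60 lie under a mean of 9 and only 3 lie at 11 or more.

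The 60 genes had lower mean signals than the set they came from. Signals of different probe sets depend on their oligonucleotides, so these are brightness values and not transcript levels on a common scale. Their mean signals ran from 8.01 to 12.01 with a median of 8.65, and 41 of the 60 (68.3%) were under 9, against 39.4% of the other bright nuclear genes, whose median was 9.28. In the mirror set, the 60 bright nuclear genes with the most negative differences whose arrays do not overlap, 45.0% were under 9. Raising the minimum to a mean of 9 kept 19 of the 60 genes. The minimum of 8 was set on the mean over both groups. Genes with a WT mean under 8 could thus qualify through their 35S:OsGSTU4 arrays, and some of the 60 did. WT means of the 60 ran from 7.47 (AT5G47330) to 11.62 (AT3G62550). The share under 9 is therefore not independent of the rule.

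A second probe set bore on 1 member only. AT2G27900 had another 2 probe sets named for it alone, which are dimmer than the one that qualified. The brighter of these had 6.96 and 7.31 in the 35S:OsGSTU4 arrays against 6.08 and 7.20 in the WT arrays, a difference of 0.50 (standard error 0.50). The other was near the floor of the scale and ran the other way, with 0.61 and 0.95 in 35S:OsGSTU4 against 3.96 and 3.20 in WT, a difference of -2.80 (0.38). The 3 probe sets of this gene thus disagree in sign.

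Long genes were frequent among the 60, as they were among all genes that met the rule before ranking. Length here is the span of the gene record in the RefSeq table of TAIR10.1, introns included, and all 60 had one. The 60 had a median of 2983 bp, the mirror set 1658 bp and the other bright nuclear genes 2263 bp. All 1064 genes that met the rule before ranking had a median of 2907 bp, close to that of the 60. The 4741 bright nuclear genes were ordered by length and cut into 5 classes of 948 or 949 genes. The longest class, of 3366 bp or more, held 24 of the 60 genes and the next held 15. It also held 403 of the 1064 genes, so its share is not particular to the 60. The shortest class, up to 1553 bp, held 11, among them LHCB4.2, LIL3:2, SAH7, AT5G48490 and AT3G62550, and the remaining classes held 4 and 6. In the mirror set the shortest class held 27 and the longest 4. AT2G45540 was the longest member at 15418 bp, followed by AT2G27900 at 8593 bp and AT3G50370 at 8380 bp. PORB had 1895 bp, AUR1 2423 bp, NUP1 6209 bp and SBE2.2 5941 bp.

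A relation to length was also seen in all bright nuclear genes, mainly in the longest class. It is given as a description, since genes on the same arrays are not independent. In the longest class the median difference was 0.20, and both 35S:OsGSTU4 arrays lay above both WT arrays at 42.5% of genes and below them at 6.22%. In the shortest class the median was -0.04 and the shares were 15.2% and 20.9%. The classes of 1553 to 2027 bp and 2027 to 2555 bp were like the shortest, with medians of -0.04 and -0.03. In the class of 2555 to 3364 bp the median was 0.04 and the shares were 25.1% and 15.7%. Spearman's rho between length and difference was 0.29 over 4741 genes, and it was 0.33, 0.19, 0.23 and 0.10 for the 4 pairs of a 35S:OsGSTU4 array with a WT array. It fell to 0.17 without WT replicate 1. Replicates of 1 genotype also differed by length, with rho of -0.12 for 35S:OsGSTU4 replicate 2 minus replicate 1 and 0.18 for WT replicate 2 minus replicate 1. Longer genes were thus relatively lowest on WT replicate 1 and relatively highest on 35S:OsGSTU4 replicate 1. Beside this, the excess of 3′ over 5′ signal in control transcripts, which widens when labelled RNA is less complete, was larger on both 35S:OsGSTU4 arrays than on both WT arrays in 5 of 6 control pairs. For actin it was 4.07 and 3.76 in the 35S:OsGSTU4 arrays against 3.48 and 3.53 in the WT arrays, and for GAPDH 1.05 and 1.36 in 35S:OsGSTU4 against 1.01 and 0.96 in WT. The control probe set for 25S ribosomal RNA stood at 5.96 on 35S:OsGSTU4 replicate 1 and at 12.76 on its replicate 2, against 12.54 on both WT arrays. The part of RNA quality and array in the differences of the 60 genes was not tested.

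**Figure D3:**
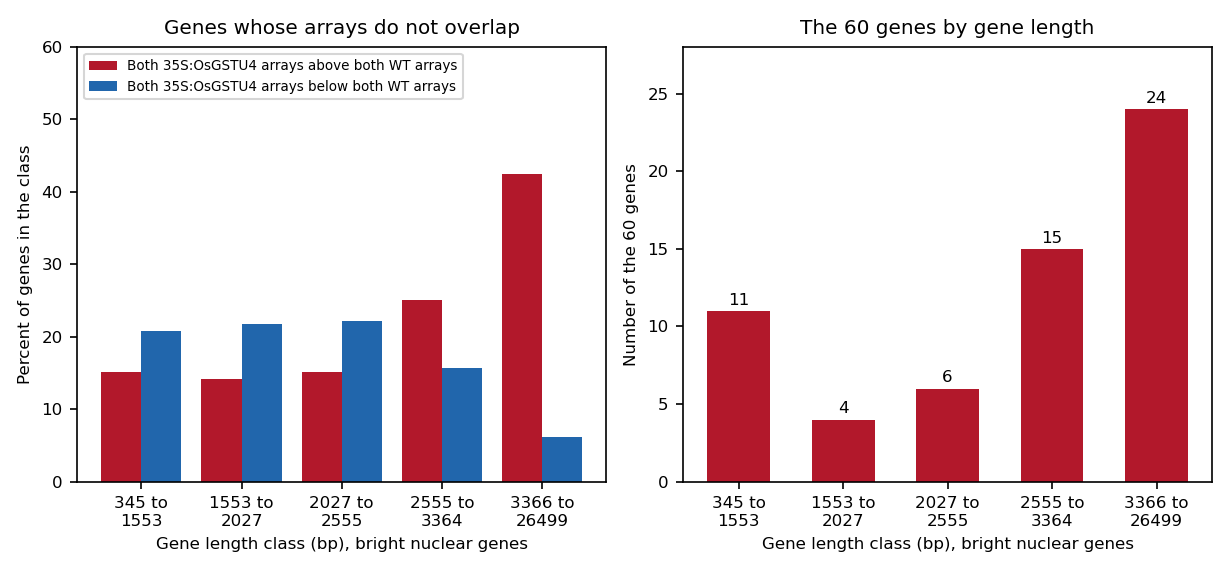
Left, percent of bright nuclear genes in each gene length class (bp) whose 35S:OsGSTU4 arrays both lie above (red) or both below (blue) the WT arrays. Right, number of the 60 genes in each class. The longest class has 42.5% above and 6.22% below and holds 24 of the 60.

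The 60 genes did not behave alike between replicates. WT replicate 2 was the higher WT array at 46 of the 60 (76.7%), against 62.9% of the 1064 genes that met the rule before ranking and 50.2% of bright nuclear genes, and the median gap of the WT replicates was 0.31 in that direction. The 35S:OsGSTU4 arrays were split evenly, with replicate 2 higher at 30 of the 60. The median difference of the 60 was 0.65 without WT replicate 1 and 0.93 without WT replicate 2, so it was smaller when WT replicate 1 was left out and larger when WT replicate 2 was. At 27 genes replicate 2 was the higher in both groups, PORB, LHCB4.2, SAH7, iqd21, PPR596 and LSMT-L among them. At 19 genes, SBE2.2 and AT1G19450 among them, WT replicate 2 and 35S:OsGSTU4 replicate 1 were the higher ones. At 11 genes replicate 1 was the higher in both groups, NUP1, 3xHMG-box1 and LIL3:2 among them, and at AT3G08780, AUR1 and HAT2 it was WT replicate 1 with 35S:OsGSTU4 replicate 2. The split differed by length, as it did in all bright nuclear genes. Of the 11 members in the shortest class 9 were higher on 35S:OsGSTU4 replicate 2, and of the 24 in the longest class 8 were. In all bright nuclear genes, 51.3% of the shortest and 35.3% of the longest class were higher on replicate 2. The members of the longest class were thus near the share of their class. WT replicates lay further apart than the group means at 6 of the 60 genes.

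**Figure D4:**
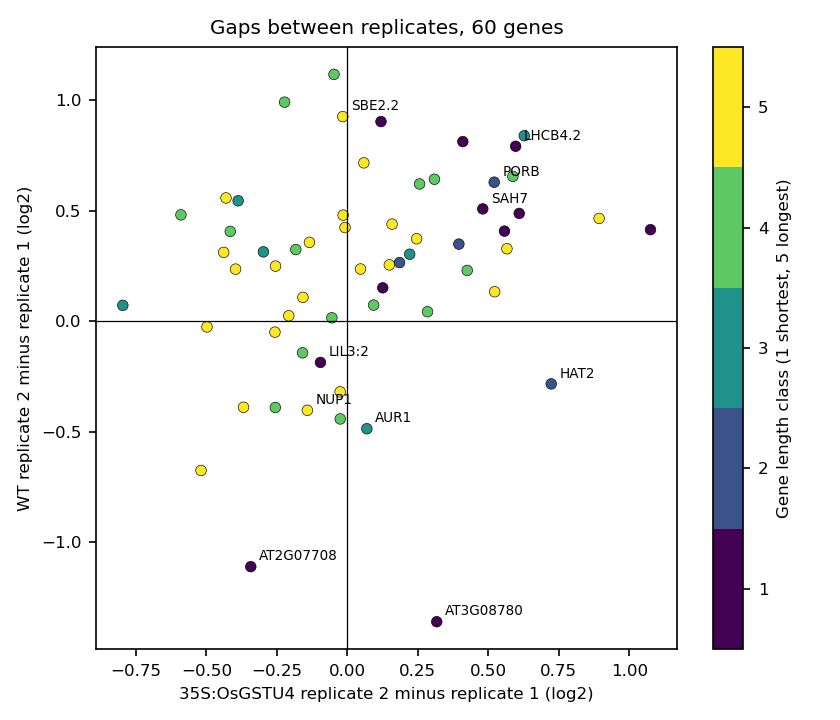
Gap between the replicates of 35S:OsGSTU4 (horizontal axis, log2) and of WT (vertical axis, log2), each replicate 2 minus replicate 1, for the 60 genes, coloured by gene length class. Points are most numerous above 0 on the vertical axis, where 46 of the 60 lie, and AT2G07708 and AT3G08780 lie lowest.

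By position, chromosome 3 held 18 of the 60 (30.0%) and 20.6% of bright nuclear genes, and chromosome 1 held 10 (16.7%) and 25.5%. The other chromosomes were within 2 percentage points of their shares. The closest members on a chromosome were AT5G47330 and HAT2, with 3 protein-coding genes between them, and 22 lay between LIL3:2 and AT5G47330. LHCB4.2 and AT3G08780 had 14 between them. At LHCB4.2 and AT5G47330 WT replicate 1 was the lowest array, while at their neighbours AT3G08780 and HAT2 it was WT replicate 2. AT5G03420 and SBE2.2, with 27 genes between them, shared the order of all 4 arrays. At AT5G10690 and AT5G10920, with 23 between them, WT replicate 1 was the lowest array of both.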

How the data were processed

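Per the labels, total RNA of Arabidopsis seedlings was copied and biotin-labelled for Affymetrix arrays, 2 per genotype. The deposited values are log2 signals that the authors made from the scans. The submitters' processing notes name RMA, for which the log2 distributions of arrays would be equal. Here they are not: the linear mean between the 2nd and 98th percentile is close to 500 on each array (499.8), and 17 to 167 probe sets per array stand at 0, as after a global scaling of MAS5 type. Median log2 signals were 7.41 and 7.42 in 35S:OsGSTU4 arrays and 7.29 and 7.37 in WT arrays.

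Of 22810 probe sets 64 controls were left out. The other 22746 went as deposited into 1 fit of limma 3.58.1 (R 4.3.3) without a block, and P was adjusted by Benjamini and Hochberg over all of them. The platform annotation tied 13508 probe sets to 1 gene (13436 by Entrez ID, 72 by symbol), and a gene with several was represented by the brightest. 8730 had no gene named and 503 had several. The gene table is RefSeq's for TAIR10.1. The files name no build, so no coordinates are given. The number of arrays limits the precision. The fit was tested on simulated data. Members and lists were chosen with earlier results of these data known. Values on every array are given for the 20 genes of largest difference, for members of lists and for those past the thresholds, and for annotated or extreme members chosen after their values were seen. Alternatives were 3 scalings, a filter at a mean of 7.35, an intensity trend, the methods' t-test, a replicate block, each array left out and other brightness minima. Figures were drawn with matplotlib 3.10.9.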

Additional observations from a re-analysis of the deposited data

How the results depend on the processing

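The median difference of the 60 genes, 0.78, was 0.70 with arrays centred on their medians, 0.73 after quantile normalization and 0.71 when centred on nuclear genes, and 0.65 to 0.93 with 1 array left out. Under these 3 scalings 59 of the 60 had arrays that still did not overlap, and the rule chose 59, 51 and 59 of them again. It chose 19 with a minimum mean of 9, which by construction leaves out the 41 dimmer ones, and 22 with a minimum of 7. The 3 members past the thresholds became 1 under each scaling and with the methods' t-test, and 5 with the intensity trend or with dim probe sets filtered out, and ran from 0 to 7 with 1 array left out. Over all probe sets, 542 higher calls became 297 with the trend, 239 with the methods' t-test and 49 among the fewer probe sets that passed the filter, with 497 to 1161 when 1 array was left out. An adjusted p of 0.05 was passed by 2 with the trend and by 0 otherwise. Of 21 function lists with a measured gene, 9 had a median above 0, and 5 with centred arrays. With the replicate number as a replicate block 649 probe sets and 3 members were called. Replicate gaps of the groups correlated at 0.23 over bright nuclear genes, and the labels give no shared batch, so the number was not taken to pair the arrays. The rho of 0.29 between length and difference was 0.27 after quantile normalization and 0.24 at means of 9 or more, alternatives chosen after the data were seen, as were the median lengths of 2862 and 2789 bp for members chosen again under these settings. The causes of these changes were not tested.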
